A study of Mus musculus with 2 samples.

Results

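Among 19478 retained cell barcodes from 2 single-cell RNA libraries of mouse kidney, 114 were dividing cells other than leukocytes, 61 of 9452 in the control library and 53 of 10026 in the haplodeficient library. A barcode was retained with at least 500 unique molecular identifiers (UMIs, each standing for 1 captured RNA molecule), 200 or more genes and no more than 50% of its UMIs from mitochondrial genes. A retained barcode counted as dividing with at least 3 UMIs of Mki67 and Top2a together. It counted as a cell other than a leukocyte with 0 UMIs of Ptprc, the gene of the leukocyte surface protein CD45, and fewer than 5 UMIs of the macrophage complement genes C1qa, C1qb and C1qc together. The members were thus picked on their own measured values, so the levels of these 6 genes, and of other genes of the cell cycle, are given below as a description. In both groups a kidney had been injured by clamping 1 renal artery for a time (unilateral ischemia reperfusion injury), and tissue was taken on day 14. The control genotype was Cre-, and the haplodeficient genotype was Cdh5-CreERT2; Phd3f/+, which carries 1 floxed allele of Phd3 (gene symbol Egln3, an oxygen-sensing prolyl hydroxylase) and a tamoxifen-activated Cre recombinase driven by the promoter of the endothelial cadherin gene Cdh5. Both groups received 4 tamoxifen injections after the injury, so tamoxifen was common to them while Cre was not. There was 1 library per genotype in batch 1, the labels give neither the age of the animals nor how many animals entered a library, and no difference between the libraries has a replicate check.

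After ischemia, surviving tubule epithelial cells lose part of their specialised gene expression, re-enter the cell cycle and repopulate the tubule. Mki67 encodes a chromosome surface protein that is made through the cycle, and Top2a encodes the topoisomerase that untangles replicated chromosomes before they separate, so their messages mark cells from S phase to mitosis and are nearly absent from resting cells. Podocytes, the filtering cells of the glomerulus, hardly divide after birth, whereas the parietal cells that line Bowman's capsule can, and both carry the transcription factor Wt1.

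The libraries held 134190236 UMIs (control) and 114668145 UMIs (haplodeficient), and 28 retained barcodes occurred in both, of which 1 was a member in its own library and none was a member in both. The level of Egln3, the targeted gene, overlapped between the libraries. In cells classed as endothelial it had 66 UMIs over 359 control cells, or 21.1 CPM (UMIs of the gene per 1000000 UMIs of the cells summed; exact Poisson 95% interval 16.3 to 26.8), and 128 UMIs over 782 haplodeficient cells, or 18.6 CPM (15.5 to 22.1). The labels do not say which part of the gene the floxed allele loses, so reads from the 3' end of its message need not report the deletion. Dividing cells had 12 Egln3 UMIs in each library, of which 1 came from the 2 dividing endothelial cells of the control library and 4 from the 4 of the haplodeficient library. All intervals here cover counting error only.

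Division was rare among cells other than leukocytes, and the intervals of the 2 libraries overlapped. Of the cells within the leukocyte limits, 61 of 7577 divided in the control library, or 0.805% (exact Clopper-Pearson 95% interval 0.616 to 1.03), and 53 of 5598 in the haplodeficient library, or 0.947% (0.710 to 1.24). The members were deep cells, with a median of 24093 and 22547 UMIs against 9903.5 and 7069 in the other cells within the limits, and a fixed UMI minimum finds more cells at greater depth. After every cell had been thinned to 2000 UMIs, a single Mki67 or Top2a UMI was left in 66 of 6682 control cells, or 0.988%, and 58 of 4852 haplodeficient cells, or 1.20%. The 2 intervals again overlapped. At the full minimum of 3 UMIs the thinned shares were 16 of 6682 (0.239%) and 8 of 4852 (0.165%), so the order of the libraries turned round and no order is read from these shares. Median mitochondrial shares were lower in members (7.11% and 2.86%) than in the other cells (13.3% and 3.79%). The part of depth and mitochondrial share in which cells were found dividing was not otherwise tested.

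The 2 selecting genes were carried by most members at more than the minimum. Together the members held 434 Mki67 and 548 Top2a UMIs in the control library and 260 and 375 in the haplodeficient library. At least 10 UMIs of the pair were found in 30 of 61 and 24 of 53 members. Just inside the minimum lay 11 control and 7 haplodeficient cells with exactly 3 UMIs, and just outside it 23 and 19 cells with 2.

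Genes of leukocytes that the selection had not used were low in most members and high in a few. Over 10 pan-leukocyte genes (Coro1a, Laptm5, Cd52, Tyrobp, Fcer1g, Lcp1, Cd53, Arhgdib, Rac2 and Cytip) the members summed to 75.6 CPM in the control and 169 CPM in the haplodeficient library. The other cells within the limits had 83.5 and 244 CPM, cells outside the limits had 3750 and 5799 CPM, and barcodes of 1 to 100 UMIs, which hold free RNA, had 524 and 3039 CPM. Only 3 members of each library carried 10 or more of these UMIs (4.92% and 5.66%), against 78.2% and 88.5% of the cells outside the limits. At least 1 such UMI was found in 60.7% of control and 52.8% of haplodeficient members, against 35.5% and 53.6% of the shallower other cells. By their nearest neighbours 1 control and 2 haplodeficient members were classed as leukocytes. The B cell list summed to 198 and 190 CPM in members against 45.5 and 18.5 CPM in the other cells. In each library 1 of these leukocyte-classed members held 98.9% and 99.2% of it, with 356 and 257 UMIs of Jchain, the joining chain of secreted antibodies. The third held 29 of the 35 T cell list UMIs of the haplodeficient members. These 3 cells met the selection without Ptprc and are counted among the members, and 1 in each library was marked as a likely doublet. The dividing cells outside the limits numbered 71 and 172, and 69 and 165 of them were kept out by Ptprc.

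Likely doublets, droplets that may hold 2 cells, were more frequent among the members. Scrublet, run at a rate of 0.8% per 1000 cells, marked 17 of 61 control members (27.9%) and 18 of 53 haplodeficient members (34.0%) as likely doublets, against 6.53% and 6.31% of the other cells within the limits. These members were kept, and dividing shares without them are given beside the shares that they move most.

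Lineages were read from the other cells. All retained cells that were neither members nor likely doublets were clustered without the cell cycle genes, the clusters were named from marker lists, and each member or likely doublet took the class held by at least 8 of its 15 nearest neighbours. The classes are proximal tubule-like, injured tubule-like, descending thin limb-like, thick ascending limb-like, distal convoluted tubule-like, principal or connecting tubule-like, intercalated cell-like, urothelium-like, endothelium-like, pericyte or smooth muscle-like and fibroblast-like, and the ending is left off below. The class depends on the method: reading it from marker UMIs alone gave the same answer for 33 of 61 and 21 of 53 members, and clustering each library on its own for 46 and 39. All 15 neighbours were of 1 class for 36 members in each library.

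A cluster led by Tnc, Tagln, Cdh11, Igfbp2, Wt1, Wnt16 and Foxd1 met 7 of 8 markers of parietal epithelium and 5 of 8 of podocytes. Because its leading genes also included genes of stromal cells, it is called Wt1-positive here and given no cell type name. Among the named kidney classes it had the largest unthinned dividing share in both libraries. In the control library 12 of its 100 cells divided, or 12.0% (6.36 to 20.0), and in the haplodeficient library 23 of 312, or 7.37% (4.73 to 10.9). The 7 tubule classes, pooled, divided at 41 of 6173 cells, or 0.664% (0.477 to 0.900), and at 18 of 3108, or 0.579% (0.344 to 0.914), so the intervals of the Wt1-positive and tubule shares did not overlap in either library. Wt1-positive cells made up 1.32% and 5.57% of the cells within the limits, but 19.7% and 43.4% of the dividing ones. Tubule classes held 67.2% of the dividing cells in the control library and 34.0% in the haplodeficient library.

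The size of the Wt1-positive share rests on the method. With classes read from marker UMIs it was 5.10% and 3.55%, and without likely doublets it was 12.1% and 5.45%. At 2000 UMIs per cell, 12 of 95 control cells (12.6%, 6.70 to 21.0) and 10 of 289 haplodeficient cells (3.46%, 1.67 to 6.27) kept a Mki67 or Top2a UMI. The 2 libraries overlapped in the unthinned share and not in the thinned one, and the thinned tubule shares were 0.715% and 0.689%. Cells within the limits that were classed as leukocytes had thinned shares of 4 of 24 (16.7%) and 10 of 139 (7.19%), above those of the Wt1-positive class. At the full minimum of 3 UMIs the thinned share of Wt1-positive cells in the haplodeficient library was 0.692%, against 0.138% for its tubule classes. Only 8 of 4852 thinned cells of that library reached this minimum over all classes, so no order is read from these shares.

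**Figure D1:**
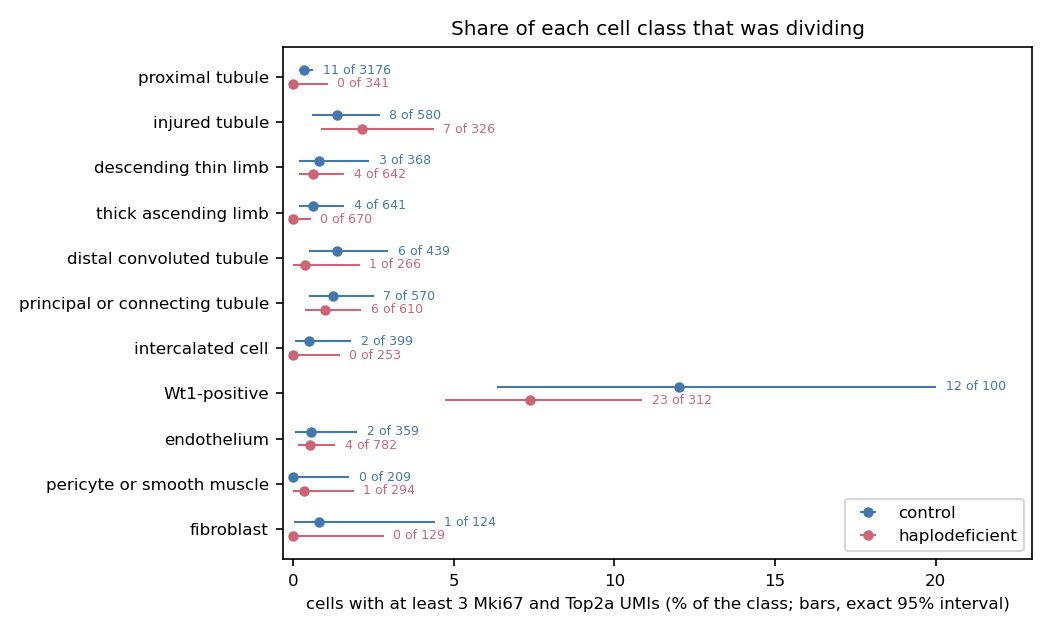
Share of each cell class that was dividing, in percent of the class, with exact 95% Clopper-Pearson intervals as bars and the cell counts beside them, for the control (blue) and haplodeficient (red) library. Wt1-positive cells lie at 12.0% and 7.37%, and the other classes plotted lie below 3%. Urothelium, with 18 and 24 cells in all, is not plotted.

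Within the tubule, with classes from nearest neighbours, division was spread over all 7 classes in the control library and over 4 in the haplodeficient library. Proximal tubule cells, which reabsorb most of the filtrate, divided at 11 of 3176 cells in the control library, or 0.346% (0.173 to 0.619), 5 of the 11 being likely doublets, and 0.198% without likely doublets. From marker UMIs alone 4 of the 11 read as proximal tubule. Of the rest, 2 read as thick ascending limb, 2 as distal convoluted tubule, 2 as Wt1-positive and 1 as descending thin limb. None of the 341 proximal tubule cells of the haplodeficient library divided, which allows a share of up to 0.880%, so a share like that of the control library was not detectable there. The proximal class itself was 41.9% of the cells within the limits in the control library and 6.09% in the haplodeficient library.

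Injured tubule cells, whose main cluster was led by Havcr1 (kidney injury molecule 1), divided at 8 of 580 cells, or 1.38% (0.597 to 2.70), and at 7 of 326, or 2.15% (0.868 to 4.37). Without likely doublets these were 1.12% and 1.37%, since 2 of the 8 and 3 of the 7 were likely doublets. A Havcr1 UMI was found in 5 of the 8 and 6 of the 7. From marker UMIs alone 1 of the 8 and 4 of the 7 read as injured tubule, and 4 and 2 as Wt1-positive. In the control library the injured tubule share was about the level of distal convoluted tubule cells (6 of 439, 1.37%) and of principal or connecting tubule cells (7 of 570, 1.23%). Those 2 classes handle salt and water under hormonal control. Distal convoluted tubule gave 1 of 266 cells in the haplodeficient library and principal or connecting tubule 6 of 610, or 0.984%, of which 3 were likely doublets (0.501% without them). From marker UMIs alone none of these haplodeficient cells kept its class. The distal convoluted cell read as injured tubule, and the 6 principal or connecting cells read as injured tubule (4) or mesothelium (2). Aqp2 was found in none of the 6 and Fxyd4 in 5. Descending thin limb gave 3 of 368 and 4 of 642 cells. Thick ascending limb, the segment that dilutes the urine through Slc12a1, gave 4 of 641 control cells (0.624%), 3 of them likely doublets (0.168% without them), and 0 of 670 haplodeficient cells, which allows up to 0.448%. The intercalated cells, which secrete acid or base, gave 2 of 399 (0.274% without the 1 likely doublet) and 0 of 253. In every tubule class the intervals of the 2 libraries overlapped.

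To ask which lineages divide, 6 genes of different kidney cell types were read in each member, counting the members with at least 3 UMIs of the gene. Lrp2, which encodes megalin, the endocytic receptor of the proximal tubule, reached this in 22 control and 8 haplodeficient members. All 11 proximal tubule members of the control library were among them, with 11 to 39 Lrp2 UMIs each, but the other 11 control cells were of other classes. Lrp2 made up 538 CPM of the free RNA in the control and 71.6 CPM in the haplodeficient library, above its level in the members (211 and 53.5 CPM). At least 3 Lrp2 UMIs were also found in 5 of 8 control and 4 of 7 haplodeficient injured tubule members. The part of free RNA in low Lrp2 counts was not tested.

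Havcr1 reached 3 UMIs in 8 control and 7 haplodeficient members, 4 of them in the injured class in each library. It stood at 140 CPM in control members and 217 CPM in haplodeficient members, against 110 and 48.5 CPM in the other cells within the limits. A few cells carried most of it. In the control library 2 injured cells held 53 and 101 UMIs, and in the haplodeficient library 4 injured cells held 10, 31, 73 and 158, the last 3 of these from cells of 58541 to 111914 UMIs. Slc12a1 reached 3 UMIs in 9 and 3 members. The 4 dividing thick ascending limb cells of the control library held 83, 50, 357 and 32 UMIs of it, and free RNA held 385 and 512 CPM.

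Wt1 was found in members far more often than in other cells. At least 3 UMIs were found in 8 control and 16 haplodeficient members (13.1% and 30.2%), against 0.652% and 2.07% of the other cells within the limits and 0.160% and 0.610% of cells outside them. Free RNA held 2.67 and 11.8 CPM of Wt1, below the 38.0 and 88.3 CPM of the members. At 2000 UMIs per cell, a Wt1 UMI was left in 6.67% and 21.2% of members and in 0.770% and 2.42% of the other cells. All 8 of the control cells with at least 3 UMIs and 15 of the 16 haplodeficient cells were of the Wt1-positive class, whose clusters were built with Wt1 among the genes.

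Pdgfrb, the receptor of pericytes and fibroblasts, reached 3 UMIs in 2 and 11 members, and 1 and 8 of these were Wt1-positive cells rather than mural cells. Pericytes and smooth muscle cells, as a class, gave no dividing cell among 209 in the control library and 1 among 294 in the haplodeficient library, a likely doublet with 2 Pdgfrb UMIs. Fibroblasts gave 1 of 124 and 0 of 129. The remaining members were 1 urothelial cell of 18 in the control library, and 3 control and 5 haplodeficient cells left without a class. Their neighbours were mostly of a cluster without a name, or fewer than 8 neighbours shared a class.

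Cdh5, the gene whose promoter drives the Cre recombinase, reached 3 UMIs in 2 control and 5 haplodeficient members. Endothelial cells divided at 2 of 359, or 0.557%, in the control library and at 4 of 782, or 0.512%, in the haplodeficient library (0.336% and 0.297% without likely doublets). The 2 control cells held 7 and 21 Cdh5 UMIs, and the 4 haplodeficient cells held 0, 13, 17 and 35. The cell with 35 also held 17 Pdgfrb UMIs, and 3 of these 6 cells were likely doublets, so as few as 3 dividing cells of this class remain. A haplodeficient member left without a class held 5 Cdh5 UMIs, read as endothelium from marker UMIs and was not marked as a likely doublet. No gene comparison was made on the dividing endothelial cells.

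**Figure D2:**
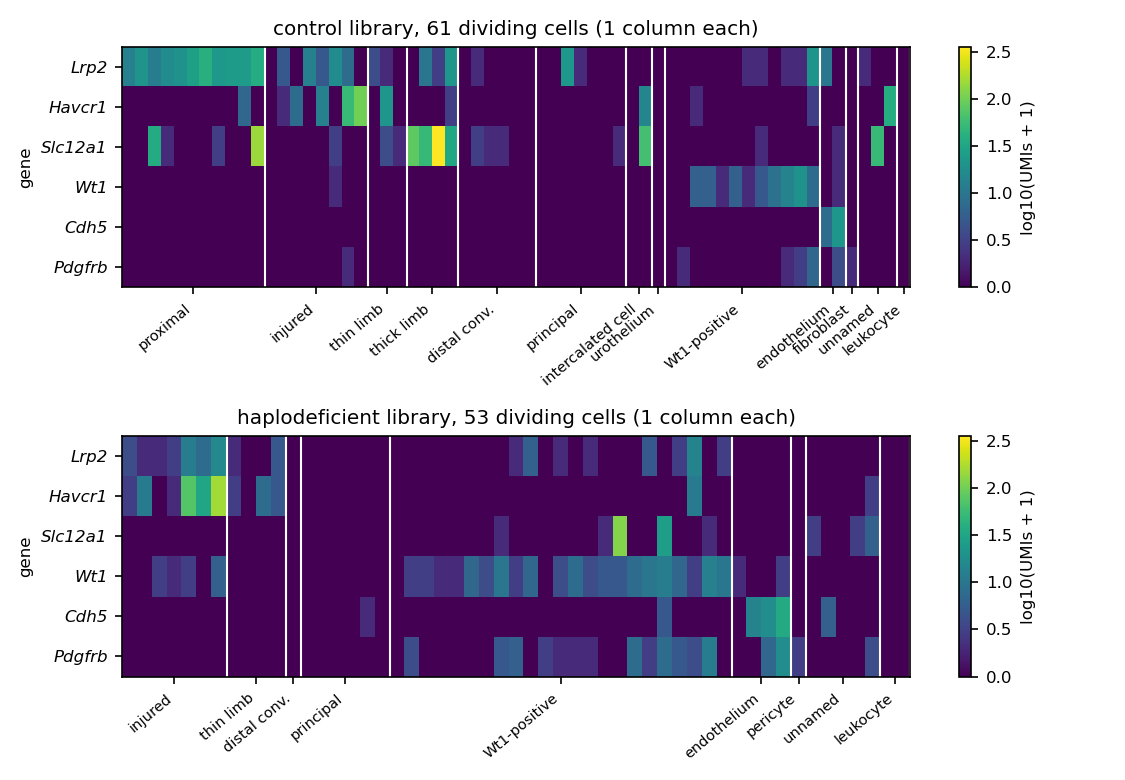
UMIs of the 6 lineage genes (rows) in each of the 61 control and 53 haplodeficient dividing cells (columns, grouped by class and ordered by UMI total within it), as log10 of UMIs plus 1. Lrp2 fills the proximal class of the control library, Wt1 fills the Wt1-positive class of both, and 23 cells in each library reach 3 UMIs of none of the 6.

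Genes that define the class were found in most Wt1-positive members. Wt1 ranged from 0 to 19 UMIs with a median of 5 in the 12 control cells and from 0 to 12 with a median of 4 in the 23 haplodeficient cells. Foxd1, a transcription factor of podocyte and stromal precursors, was found in 9 of 12 and 20 of 23 cells, and Pax8, a nephron lineage factor, in 11 and 21. Wnt16, a secreted Wnt protein, was found in 9 and 18 cells, and Igfbp2, which binds insulin-like growth factors, in 12 and 19. These genes also helped to place the cells in the class. Read from marker UMIs alone, 10 of the 12 control members were again Wt1-positive, but only 9 of the 23 haplodeficient members were, 12 reading as pericyte or smooth muscle and 2 as fibroblast.

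Marker lists of other cell types were read in the Wt1-positive members as sums. The parietal epithelium list had 4138 and 3199 CPM with 8 of 8 genes detected, and the pericyte or smooth muscle list 2496 and 5470 CPM with 8 of 9. Podocyte markers had 157 and 209 CPM with 6 of 8 detected, against 107 and 252 CPM in all other cells within the limits. Mesothelial markers, a list that also holds Wt1, had 318 and 190 CPM with 3 of 7 detected, against 119 and 196 CPM. In the haplodeficient library the sum of contractile markers was thus above that of parietal markers, and in the control library below it. In both libraries most of the contractile sum came from Tagln, a leading gene of this cluster, and Acta2 (714 and 1238 CPM). The other genes of that list added little, so the sum is not read as a mural identity.

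Genes of contractile and stromal cells were present as well. Vim, an intermediate filament gene, ranged from 2 to 53 UMIs in the control cells and from 2 to 193 in the haplodeficient cells. Acta2 (smooth muscle actin) was found in 8 of 12 cells with a median of 2 UMIs and in 21 of 23 with a median of 23. The median total was 17531.5 UMIs in the control and 24273 in the haplodeficient cells. Scaled for depth, Acta2 stood at 714 and 1238 CPM, and the part of depth in the Acta2 counts was not tested.

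The stage of the cycle was read from 43 S phase genes and 52 genes of G2 and M phase, with Mki67 and Top2a left out. A list was called high in a cell when its summed CPM passed a 99th percentile from the same library. That percentile was taken over the cells within the limits that had no Mki67 or Top2a UMI. Both lists were high in 23 control and 24 haplodeficient members, only G2 and M phase in 21 and 12, only S phase in 4 and 10, and neither in 13 and 7. Median G2 and M phase levels were 5004 and 5082 CPM in members against 626 and 810 CPM in the other cells, and median S phase levels were 1403 and 2533 against 336 and 508. These genes move with the selecting pair, so no test was made.

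Cells near the minimum were less clear. Of the members with 3 or 4 UMIs of the pair, 8 of 15 control and 5 of 15 haplodeficient cells were high on neither list. Of the cells just outside it, with 2 UMIs, 7 of 23 and 8 of 19 were high on at least 1 list.

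By these calls from summed CPM the Wt1-positive members differed between the libraries. In the control library 8 of 12 were high on both lists and the other 4 on G2 and M phase only, and their Mki67 and Top2a UMIs had a median of 26. In the haplodeficient library 8 of 23 were high on both, 6 on G2 and M phase only, 6 on S phase only and 3 on neither, with a median of 6 Mki67 and Top2a UMIs. The calls depend on the scoring. With each list scored as a mean of log-scaled values, 10 of 12 control and 14 of 23 haplodeficient cells were high on both. By that score 2 and 6 were high on G2 and M phase only, 0 and 2 on S phase only, and 0 and 1 on neither. Both libraries had 9 Wt1-positive cells with 10 or more UMIs of the pair. In the tubule classes, 14 of 41 control and 9 of 18 haplodeficient members were high on both lists.

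**Figure D3:**
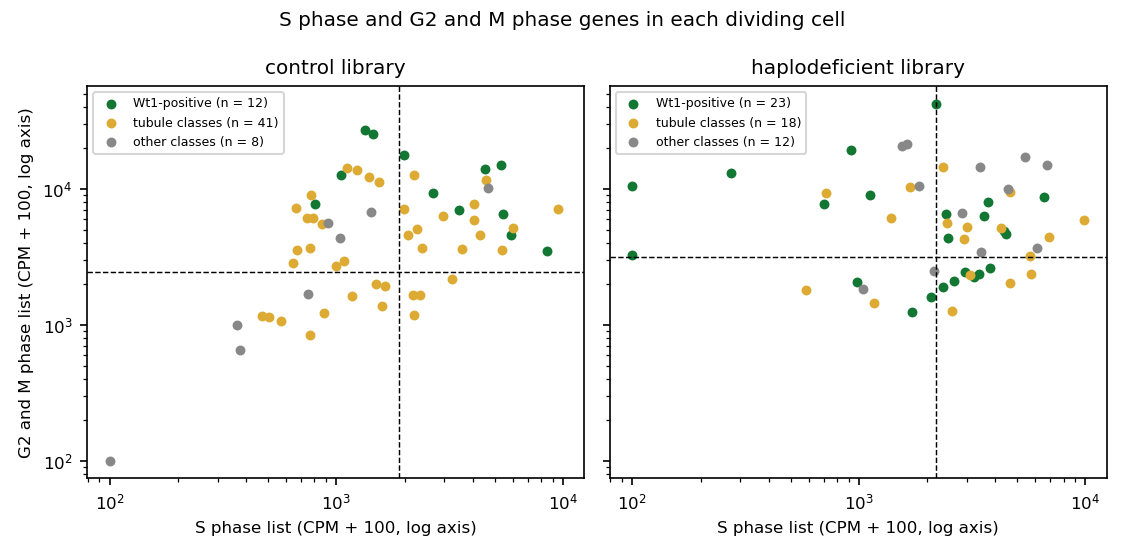
Summed CPM plus 100 of the S phase list (horizontal, log axis) against the G2 and M phase list (vertical, log axis) in each dividing cell. Dashed lines lie at the 99th percentile of the cells within the limits of that library that had no Mki67 or Top2a UMI. The 12 Wt1-positive cells of the control library all lie above the horizontal line, and 14 of the 23 in the haplodeficient library do.

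The promoters of the genes that selected the members and of 3 genes described below are shown because letter patterns known from cell cycle genes recur in them. They are the 250 bases before the first listed RefSeq start of each gene (build GRCm38.p6), in the direction of transcription. Capitals mark, on either strand, TTTGAA (the core of the cell cycle homology region, CHR), CCAAT (the CCAAT box) and TTCCCGC (an E2F-type pattern), and in Ube2c 2 CCAAT matches on opposite strands overlap. Mki67 is at chr7:135716380-135716629 (minus strand), Top2a at chr11:99024190-99024439 (minus strand), Cdk1 (the mitotic kinase) at chr10:69352913-69353162 (minus strand), Ube2c (which helps mark mitotic cyclins for destruction) at chr2:164769679-164769928 (plus strand) and Mcm7 (a subunit of the replicative helicase) at chr5:138171884-138172133 (minus strand).
Mki67: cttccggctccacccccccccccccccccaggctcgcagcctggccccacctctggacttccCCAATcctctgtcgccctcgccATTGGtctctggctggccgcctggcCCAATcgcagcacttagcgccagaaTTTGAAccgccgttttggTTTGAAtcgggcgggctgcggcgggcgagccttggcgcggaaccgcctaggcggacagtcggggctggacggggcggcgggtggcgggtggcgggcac
Top2a: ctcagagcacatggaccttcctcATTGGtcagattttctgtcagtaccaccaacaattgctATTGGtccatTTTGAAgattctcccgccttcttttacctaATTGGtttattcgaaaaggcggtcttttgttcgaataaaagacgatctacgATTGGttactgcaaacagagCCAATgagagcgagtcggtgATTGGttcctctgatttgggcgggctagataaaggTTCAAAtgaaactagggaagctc
Cdk1: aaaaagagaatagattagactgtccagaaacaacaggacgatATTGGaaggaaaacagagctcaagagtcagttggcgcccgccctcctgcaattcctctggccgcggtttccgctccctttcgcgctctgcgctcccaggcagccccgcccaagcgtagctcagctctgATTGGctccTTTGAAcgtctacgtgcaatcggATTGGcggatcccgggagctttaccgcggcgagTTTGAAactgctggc
Ube2c: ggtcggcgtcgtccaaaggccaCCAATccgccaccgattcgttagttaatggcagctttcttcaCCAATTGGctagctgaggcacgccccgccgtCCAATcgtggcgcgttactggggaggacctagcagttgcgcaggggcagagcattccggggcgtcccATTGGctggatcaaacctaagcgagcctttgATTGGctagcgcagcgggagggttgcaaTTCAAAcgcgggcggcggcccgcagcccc
Mcm7: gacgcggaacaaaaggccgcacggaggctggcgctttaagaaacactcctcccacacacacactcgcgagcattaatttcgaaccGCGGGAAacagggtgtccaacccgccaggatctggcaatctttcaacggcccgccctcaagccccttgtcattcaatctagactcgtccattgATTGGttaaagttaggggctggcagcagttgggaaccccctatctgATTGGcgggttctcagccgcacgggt
TTTGAA occurred in 16.3% of 27025 promoter windows of this length. It occurred in 17 of the 45 G2 and M phase genes with a window (37.8%) and in 5 of the 31 S phase genes with one (16.1%). CCAAT occurred in 34.5% of all windows, in 34 of 45 (75.6%) and in 23 of 31 (74.2%). TTCCCGC occurred in 3.84% of all windows, in 0 of 45 and in 12 of 31 (38.7%). The Mki67 window holds TTTGAA at -116 to -111 and -98 to -93 from the start, and Top2a holds it at -179 to -174 and, on the other strand, at -23 to -18. Mcm7 holds the E2F-type pattern on the other strand at -165 to -159 and no TTTGAA. These are matches of letters and not shown to be binding sites.

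No class reached the 30 dividing cells per library that had been set for a comparison of genes. The 7 tubule classes were therefore pooled, each member being set against other cells of its own class and library, and the Wt1-positive cells were taken on their own; both choices were made after the counts were seen. To enter, a gene needed 50 CPM or more as the mean of the 2 sides and 30 or more UMIs on both sides together. It is called higher or lower here when the log2 ratio of CPM (with 5 CPM added to each side) was at least 1 in size and the exact Poisson intervals did not overlap. Cells of 1 library share their animals, so these calls describe the 2 libraries, and there is no test.

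Proximal transport and metabolism genes had log2 ratios below 0 in dividing tubule cells against other cells of the same classes. Of 17 proximal transport and metabolism genes that entered in the control library, 17 had a log2 ratio below 0 and 4 were lower by the size rule, with a median of -0.63. In the haplodeficient library all 11 that entered were below 0 and 8 were lower, with a median of -1.61. Over all 3609 and 3658 genes that entered, the medians were 0.06 and 0.07, and 1.44% and 2.93% of genes were lower by the same rule. The haplodeficient members included no proximal tubule or thick ascending limb cell and the control members 11 proximal cells of 41, so the list is read over pooled classes and not within its own segment.

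Among these genes, Pck1, an enzyme of glucose synthesis, stood at 64.3 CPM in dividing and 218 CPM in other tubule cells of the control library, a log2 ratio of -1.69. Slc22a6, the organic anion transporter OAT1, had a ratio of -1.66 there. Miox, which breaks down inositol, was lower in both libraries, at -1.14 and -3.66. Slc34a1, the phosphate cotransporter, stood at 24.7 against 479 CPM in the haplodeficient library, a ratio of -4.02. In the control library it was 576 against 877 CPM, which did not meet the size rule. Thick limb transport genes followed the same direction in the control library, where 8 of 8 were below 0 and 3 were lower, among them Egf (57.9 against 266 CPM, -2.11), the growth factor precursor made by that segment.

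Genes of tubule injury stood higher in the dividing cells of the control library and were mixed in those of the haplodeficient library. Of 18 that entered in each, 15 were above 0 in the control library with 3 higher and a median of 0.55, and 10 were above 0 in the haplodeficient library with 1 higher and a median of 0.06. The background of higher genes was 1.86% and 2.38%. Cd44, a hyaluronan receptor, was the 1 called in both, at 190 against 47.6 CPM (log2 ratio 1.89, 24 of 41 cells) and at 207 against 88.7 CPM (1.17, 11 of 18 cells). S100a6, a calcium-binding protein gene, stood at 2556 against 760 CPM (1.74), and Lcn2, which encodes the injury marker NGAL, at 2763 against 1128 CPM (1.29), in the control library. A single cell gave 46.7% of the Lcn2 UMIs. Havcr1 itself did not differ by the rule, with ratios of 0.20 and 0.77.

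Vim, which mature tubule cells hardly make, was higher in the dividing tubule cells of both libraries. It stood at 162 against 27.0 CPM in the control library (2.39, 15 of 41 cells) and at 579 against 145 CPM in the haplodeficient library (1.96, 11 of 18 cells). It belongs to the matrix and fibrosis list, of which 5 of 5 genes were above 0 in the control library and 7 of 8 in the haplodeficient library. In the latter, 98.8% of the Tagln and 96.3% of the Acta2 UMIs came from a single cell. Of the immediate early genes induced by dissociation, 13 of 18 and 16 of 17 were below 0, 0 and 4 were lower by the size rule, and the medians were -0.39 and -0.61. Inhibitors of the cycle showed no common direction, with 4 of 6 and 2 of 5 above 0. All 6 p53 target genes that entered in the control library were above 0, none past the size rule, and in the haplodeficient library 3 of 5 were.

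In both libraries 48 of 3140 genes outside the cell cycle lists met the size rule in the same direction, 29 higher and 19 lower. The 5 highest on average were Hist1h2ap (a replication histone, 5.07 and 5.52), Pclaf (a partner of the replication clamp, 4.79 and 5.39), Prc1 (which bundles microtubules at cell division, 4.11 and 4.01), Smc2 (a condensin subunit, 2.78 and 3.09) and Stmn1 (a microtubule regulator, 3.07 and 2.23). These are themselves genes of dividing cells. The 5 lowest were Klk1 (tissue kallikrein, -3.87 and -3.98), S100g (the calcium carrier calbindin-D9k, -1.80 and -5.42), Kap (-2.38 and -3.57), Hsd11b2 (which inactivates glucocorticoids in the distal nephron, -1.27 and -3.89) and Miox. Most of these are products of differentiated tubule segments.

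**Figure D4:**
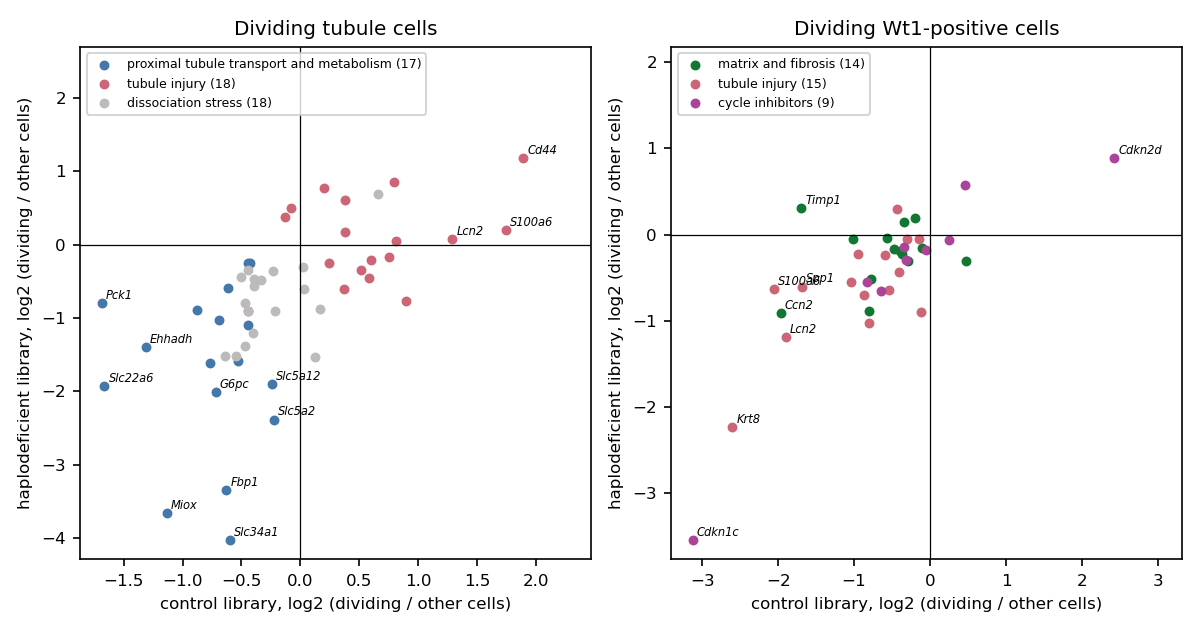
Log2 ratio of dividing to other cells of the same class in the control library (horizontal) and the haplodeficient library (vertical), 1 point per gene, for genes that entered in either library. In tubule cells (left) the proximal transport genes lie below 0 on both axes, and in Wt1-positive cells (right) most injury and matrix genes do.

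In dividing Wt1-positive cells most genes of injury had a log2 ratio below 0 against the other cells of the class. Of 14 and 15 tubule injury genes that entered, 14 and 14 were below 0, 4 and 3 were lower by the size rule, and the medians were -0.70 and -0.60. Over all 3781 and 3692 genes the medians were 0.02 and -0.01, and 3.09% and 0.84% of genes were lower. Weighting each cell alike left 11 of 13 and 13 of 15 below 0, with medians of -0.48 and -0.35. Without likely doublets 12 of 14 and 11 of 14 were below 0, with medians of -0.44 and -0.41. Only 3 and 1 of these were then lower by the size rule. Krt8, a keratin of simple epithelia, stood at 21.8 against 158 CPM in the control library (-2.60) and at 21.7 against 121 CPM in the haplodeficient library (-2.23). S100a6 was lower in the control library (331 against 1394 CPM, -2.06) and at 1580 against 2448 CPM, a ratio of -0.63, in the haplodeficient library. Matrix and fibrosis genes leaned the same way, with 11 of 12 and 11 of 14 below 0.

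A gene lower in both libraries was Magi2. This scaffold gene of the podocyte slit diaphragm stood at 69.7 against 612 CPM in the control library (-3.05) and at 205 against 736 CPM in the haplodeficient library (-1.82). Cdkn1c, the cycle inhibitor p57 that mature podocytes carry, had 1 UMI in the 12 control and 3 UMIs in the 23 haplodeficient cells, or 4.36 and 5.01 CPM, against 76.6 and 111 CPM in the other Wt1-positive cells. Its ratios were -3.12 and -3.54, and in the control library it was below the level needed to enter. Wt1 itself was at 296 against 251 CPM and at 182 against 237 CPM, within the size rule. Cdkn2d, the inhibitor p19, was higher in the control library (2.43) and not past the rule in the other (0.88).

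Proximal tubule genes also appeared in this comparison, with 8 of 8 that entered higher in the control library and 3 of 3 in the haplodeficient library. All Miox, Pck1 and Slc22a6 UMIs of the control cells came from 1 cell. Without likely doublets only 1 such gene entered in the control library and 0 in the haplodeficient library. The background of higher genes was 4.95% and 1.63%.

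In both libraries 57 of 3361 genes met the rule in the same direction, 46 higher and 11 lower. Hist1h2ap (6.60 and 5.73), Prc1 (6.24 and 4.39), Pclaf (5.25 and 4.53), Hist1h2ae (4.33 and 4.49) and Diaph3 (a formin that builds actin filaments, 4.19 and 3.94) were the highest. The 5 lowest were Magi2, Krt8, Wfdc2 (an epithelial secreted protein gene, -3.33 and -1.33), Klf2 (a transcription factor, -2.81 and -1.21) and Nupr1 (a stress response gene, -2.06 and -1.48). Hist1h2ap, Prc1 and Pclaf thus led both the tubule and the Wt1-positive comparison.

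Between the libraries, the proximal transport genes of dividing cells were lower in the haplodeficient library, and most matrix and interferon genes that entered were higher. Over all members, haplodeficient against control, 3.53% of 3795 genes were higher and 4.53% lower by the size rule. All 11 proximal transport genes that entered were lower, with a median log2 ratio of -1.92, and the haplodeficient members included no proximal tubule cell. Slc12a3, the distal convoluted tubule cotransporter, was lower at -4.29, with 6 distal convoluted tubule members among the control cells and 1 among the haplodeficient cells. Matrix and fibrosis genes were above 0 for 11 of 12 with 9 higher and a median of 1.61, and Wt1-positive cells, which carry many of them, were 43.4% against 19.7% of members. Interferon response genes were above 0 for 7 of 7, 6 of them higher, with a median of 1.50 (1.10 without likely doublets). Class and genotype cannot be told apart in these sums.

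The other extremes of that comparison often rested on 1 cell. Kap (-5.59), Krt15 (-4.66), Tmem52b, Miox (-4.03), Ly6d, Abca13, Sprr2f, Il1f6 and Sprr1a made up the rest of the 10 lowest, and a single control cell held 97.7% of the Ly6d UMIs. Among the 10 highest, Gpihbp1 (4.48), a capillary gene, took 93.4% of its UMIs from 1 cell and Cd52 (3.22) took 53.7%. The others were Col6a1 (2.96), Mir100hg (2.63), Sorcs1 (2.60), Pde3a (2.21), Hist1h1b (2.20), C1qtnf7 (2.19), Stc2 (2.17) and Acta2 (2.16). Acta2 came from 26 of 53 haplodeficient and 15 of 61 control cells.

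Within the Wt1-positive class, the dividing cells of the haplodeficient library had less of the G2 and M phase genes. Of 42 that entered, 41 had a log2 ratio below 0 and 23 were lower by the size rule, with a median of -1.04, against 3.19% of all 3856 genes lower and a median of -0.05. Weighting each cell alike left 41 of 42 below 0 and 14 lower (median -0.74), and leaving out likely doublets left 41 of 41 below 0 and 26 lower (-1.17). Ccnb1, the mitotic cyclin B1, stood at 30.0 CPM in 5 of 23 haplodeficient cells with a UMI and at 192 CPM in 8 of 12 control cells (-2.49). Ube2c stood at 150 CPM (12 cells) and 736 CPM (10 cells), a ratio of -2.26, and Cdk1 at 103 and 370 CPM (-1.79). S phase genes moved less, with 18 of 24 below 0, 1 lower and a median of -0.24, and Mcm7 stood at 88.4 and 74.0 CPM (0.24). Weighting each cell alike, 23 of 24 S phase genes were below 0 and 3 lower (median -0.54). Without likely doublets 26 of 26 were below 0 and 2 lower (-0.45). Members were selected on Mki67 and Top2a, whose median was 6 UMIs in the haplodeficient and 26 in the control cells, so this is the same contrast seen in the phase calls above.

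Most interferon response and matrix genes had a log2 ratio above 0 in the dividing Wt1-positive cells of the haplodeficient library, though few passed the size rule. Of 8 interferon genes 7 were above 0 with 3 higher (median 1.01), against 1.22% of all genes higher. Isg15, a ubiquitin-like protein gene, stood at 112 CPM in 19 of 23 haplodeficient cells and at 21.8 CPM in 4 of 12 control cells (2.12). Bst2 (tetherin) stood at 132 and 43.6 CPM (1.49). In the 289 and 88 Wt1-positive cells that were not dividing, Isg15 was higher by 2.06 and Bst2 by 1.06, and 6 of 7 interferon genes were above 0, 3 of them higher, with a median of 0.68. Without likely doublets 5 of 7 were above 0 in the dividing cells, with a median of 0.65. A pan-leukocyte UMI was found in 4 of the 12 control and 11 of the 23 haplodeficient dividing cells, and the part of leukocyte RNA in the interferon values was not tested.

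All 12 matrix genes that entered were above 0 in the dividing cells, 2 of them higher, with a median of 0.74. Tagln stood at 3976 and 1642 CPM (1.27) and Col1a2, a collagen I chain, at 180 and 82.8 CPM (1.08), the latter from 16 of 23 and 2 of 12 cells. In the other Wt1-positive cells Tagln had a ratio of 1.32, and 11 of 14 matrix genes were above 0, 2 of them higher. Targets of the hypoxia-inducible factors, which Phd3 acts on, showed 7 of 9 above 0, none past the size rule and a median of 0.10, beside a ratio of 0.08 for Ldha and -0.70 for Pgk1, both of glycolysis.

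The single genes at the ends of the Wt1-positive comparison were again partly from single cells. The lowest were Kap (-7.45), Miox, Acy3, Ttc36, Ccnb1, Ube2c, Msmp (-2.13), Sult1d1, Fbp1 and Akr1c21, and 97.6% of the control Kap UMIs were from 1 cell. Among the highest were Umod (4.81), Slc12a1 (4.75), Cxcl2 (3.08), Sorcs1 (2.85), Robo2 (2.42), Wfdc2 (2.36), Mir100hg (2.26), S100a6 (2.24) and Klf2 (2.23). Umod, Slc12a1 and Cxcl2 took 70.9%, 80.4% and 79.0% of their haplodeficient UMIs from 1 cell each.

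**Figure D5:**
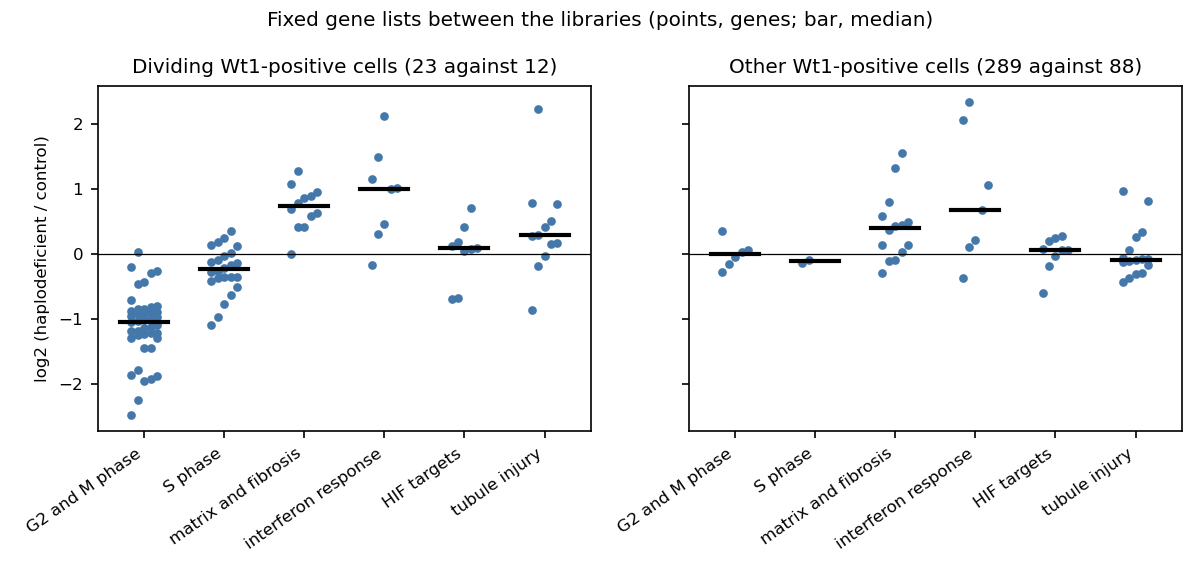
Log2 ratio of haplodeficient to control CPM for the genes of 6 lists (points) with the median of each list (bar), in dividing Wt1-positive cells (left, 23 against 12 cells) and in other Wt1-positive cells (right, 289 against 88). The G2 and M phase genes lie below 0 on the left with a median of -1.04, and the interferon genes lie mostly above 0 on both sides, with medians of 1.01 and 0.68.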

How the data were processed

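Dissociated mouse kidney was profiled as 10x Genomics 3' single-cell RNA libraries, 1 per genotype. The deposited values are raw UMI counts per gene and barcode for all barcodes, which the authors obtained with Cell Ranger; per the file headers the version was 4, and per the submitters' processing notes the build was mm10. The protocol mentions cell hashing, but all features in the matrices are genes, so animals were not separated. The members and gene lists were chosen with earlier results of these data known, and so were the 2 pooled comparisons.

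Cells were selected as described above, with depth ranging from 949 to 111914 UMIs over the members. Doublets were scored with Scrublet (scanpy 1.11.5). Clustering used 2000 variable genes without cell cycle genes, 30 principal components, 15 nearest neighbours (scikit-learn 1.9.0) and Leiden communities (leidenalg 0.10.2, resolution 1), both libraries together without batch correction. A class needed 3 markers found in 10% of a cluster's cells at 2-fold or more. UMIs were summed over cells and scaled to CPM, with exact Poisson intervals, and shares have exact Clopper-Pearson intervals at 95% (scipy 1.17.1). With 1 library per group no p-values were computed, and a count of 0 of n was taken to allow up to 3 of n. The comparison code was tested on simulated data. Genes named are the 6 lineage genes, genes of the fixed lists, the 5 highest and 5 lowest genes outside the cell cycle lists past the size rule in both libraries, and the 10 highest and 10 lowest between libraries. Genes that describe the Wt1-positive cells (Vim, Acta2, Magi2, Pax8) came from the lists or were named after their values were seen. Promoter windows are from RefSeq, and genes without an entry were left out. Alternatives included other cell limits, thinning, removing likely doublets, other clusterings, scalings and pseudocounts. Some genes are not reported here.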

Additional observations from a re-analysis of the deposited data

How the results depend on the processing

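Of 349 values under alternative settings 267 stayed close to the value reported, 82 moved and 0 reversed. A change in the order of the 2 libraries was not counted as a reversal. That order turned round after thinning at the minimum of 3 UMIs, for the dividing share and for the Wt1-positive and tubule shares of members. Other scaling, a pseudocount of 1 CPM, a mitochondrial limit of 25%, a minimum of 1000 UMIs, no C1q UMI and Leiden resolution 2 moved none of theirs. The dividing shares of the control and haplodeficient library were 1.11% and 1.29% at 2 or more Mki67 and Top2a UMIs, 0.607% and 0.679% at 5 or more, and 0.239% and 0.165% at 3 or more after thinning to 2000 UMIs. They were 0.594% in the control library with at most 1 pan-leukocyte UMI and 0.669% in the haplodeficient library without likely doublets. The control tubule share was 0.956% at 2 or more UMIs, 0.125% thinned (haplodeficient 0.138%), 0.471% with at most 1 pan-leukocyte UMI and 0.462% without likely doublets. Thinned to 2000 UMIs at the same minimum of 3, Wt1-positive cells were 50% of control and 25% of haplodeficient members, tubule cells 43.8% and 50%, and 0.692% of haplodeficient Wt1-positive cells divided. With lineage from marker UMIs, tubule cells were 49.2% of control members and Wt1-positive cells 20.8% of haplodeficient members, and the Wt1-positive dividing shares were 5.10% and 3.55%. The leukocyte class fell to 0 members of the control library at 5 or more UMIs, when thinned, with at most 1 pan-leukocyte UMI, without likely doublets and in its own clustering, and to 0 of the haplodeficient library when thinned and with at most 1 pan-leukocyte UMI.

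Members with any UMI of a gene, when at least 3 UMIs were asked for, were 36.1% (control) and 15.1% (haplodeficient) for Lrp2, 14.8% and 5.66% for Slc12a1, 30.2% for Wt1 in the haplodeficient and 3.28% for Pdgfrb in the control library. Thinned, they were 28.3% and 7.69% for Lrp2, 8.33% for Havcr1 in the control library, 18.3% and 3.85% for Slc12a1, 6.67% and 21.2% for Wt1, and 1.67% and 11.5% for Pdgfrb. At 3 or more pan-leukocyte UMIs the shares were 21.3% and 20.8%. Scored as a mean of log-scaled values, 88.5% and 98.1% of members were high on a cycle list.

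Counts of genes past the size rule rose when genes of 10 CPM and 10 UMIs were let in. They became 248 higher and 125 lower for tubule control, 382 and 333 for tubule haplodeficient, 366 and 213 for Wt1-positive control, 248 and 126 for Wt1-positive haplodeficient, 446 and 478 between libraries over all members, and 102 and 188 between libraries for Wt1-positive members. Thinned, they became 180 higher for tubule control, 181 higher for tubule haplodeficient, 26 and 14 for Wt1-positive control, 42 and 64 between libraries, and 8 and 14 for Wt1-positive members between libraries. With each cell weighted alike, an alternative added after the data were seen, they were 181 higher for tubule haplodeficient, 217 lower for Wt1-positive control, 147 and 66 for Wt1-positive haplodeficient and 128 higher between libraries for Wt1-positive members. The cause of each shift was not tested. No paired analysis was possible because there was 1 library per group. Depth limits what can be read: classes had at most 23 dividing cells, free RNA and undetected doublets remain, and 1 library per genotype leaves animal, library and genotype inseparable.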
